A study of Homo sapiens with 18 samples.

Results

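The genes described are 46 DNA replication and G1/S genes, a list fixed by gene symbol, measured in melanoma cells that overexpress PPP2R3B on induction. All 46 were found among the 58051 genes of the count table by gene ID, and all 46 had enough counts to be tested in both cell lines. They are the genes for origin licensing, helicase activation, the replicative polymerases, the sliding clamp and its loader, deoxynucleotide supply, the E-type cyclins and E2F factors that open S phase, and chromatin replication.

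The melanoma lines sequenced were SKMEL2 and SKMEL30, both carrying a pathogenic variant at the same codon of NRAS. Each carried the tet-ON vector pTRIPZ-PPP2R3B, delivered by lentivirus and kept by puromycin selection, which expresses PPP2R3B, the gene for the PP2A regulatory subunit PR70, when doxycycline is given. Each line had 3 libraries of untreated (uninduced) cells, 3 of cells induced for 6 h and 3 of cells induced for 18 h, which made 6 groups and 18 libraries. The sample labels give the later time as 18 hours, while the study's text gives an earlier hour, and the labels were followed here. Each line had a single uninduced group, whose harvest time is not given in the sources used here. No group received doxycycline without the PPP2R3B vector, so the effects of doxycycline and of PPP2R3B cannot be told apart. Without an uninduced group for each time, time in culture cannot be told apart from induction either. This holds for 18 h against 6 h as well. The sources do not say whether the libraries of a group came from separate cultures, so p-values measure only the spread between these libraries, and each cell line is 1 source.

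Replication is prepared in G1, when the origin recognition complex, CDC6 and CDT1 load the MCM2-7 helicase onto DNA. At the G1/S boundary cyclin E with CDK2, and the E2F transcription factors released from RB, raise the expression of many of the genes that S phase needs. CDC45 and the GINS complex then switch the loaded helicase on, the polymerases copy the template around the PCNA clamp, and ribonucleotide reductase and thymidylate synthase supply precursors. Messenger RNA of these genes is therefore commonly read as a marker of cells in cycle. PR70 is known to direct PP2A to CDC6. In bulk RNA, fewer cells in S phase and less RNA per cell cannot be told apart.

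Total counts ran from 13402645 to 22383470 per library (median 17958636). PPP2R3B, measured as a check of the labels, lay between 17.2 and 24.4 CPM (counts scaled to the size of the library, with TMM factors over all 18 libraries) in the 6 uninduced libraries and between 343 and 617 CPM in the 12 induced ones. Melanocyte genes were present in both lines: MITF lay at 396 to 453 CPM in SKMEL2 and 759 to 816 CPM in SKMEL30, while TYRP1 was low in SKMEL2 (3.44 to 12.1 CPM) and high in SKMEL30 (1110 to 1320 CPM). The summed leukocyte markers lay between 33.1 and 55.6 CPM in SKMEL2 and between 33.4 and 37.9 CPM in SKMEL30. Nearly all of this was CD68, with 32.3 to 54.8 CPM in SKMEL2 and 33.1 to 37.7 CPM in SKMEL30, while PTPRC was at most 0.804 CPM and CD3E at most 0.111 CPM. The summed fibroblast markers lay between 3.1 and 5.42 CPM in SKMEL2 and between 28.2 and 33.5 CPM in SKMEL30, where LUM alone had 27.5 to 32.7 CPM. The keratinocyte markers, summed over 4 genes, lay between 22.7 and 39.2 CPM in SKMEL2. There TP63 alone had 18.8 to 23.1 CPM, while KRT5 ran from 0 to 8.27 CPM and KRT14 from 0.517 to 6.76 CPM. The sum lay between 0.20 and 11.4 CPM in 8 of the SKMEL30 libraries, while SKMEL30 6 h replicate 3 held 68.9 CPM, with KRT5 at 37.5 CPM. The part of these transcripts in the results was not tested, but values without that library are given where it mattered. In SKMEL2, 6 h replicate 3 stood apart: the SD over the members of their log2 deviation from the line mean was 0.169 in that library and 0.0549 to 0.0984 in the other 8 libraries of the line, and over 9871 genes with a mean of at least 10 CPM it was 0.203 against 0.0862 to 0.148. SKMEL2 uninduced replicate 3 held the upper ends of these ranges, 0.0984 and 0.148. Its chi-square over degrees of freedom against the other uninduced SKMEL2 libraries was 18.6 and 16.5, beside 4.24 between those. Its mitochondrial share of counts was 9.49%, beside 6.42% to 8.76% in the other SKMEL2 libraries. The libraries of SKMEL2 were more variable throughout, with a common biological coefficient of variation of 8.36% in SKMEL2 and 4.11% in SKMEL30.

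The level of the whole gene group was first followed in each library, as the median over the 46 genes of log2(CPM + 0.5) minus the mean of that gene over the 9 libraries of its line. In SKMEL30 this level was 0.030, 0.020 and 0.038 in the uninduced libraries, 0.016, 0.012 and 0.0044 at 6 h, and -0.049, -0.045 and -0.053 at 18 h. The 3 libraries at 18 h were thus the lowest of the line, without overlap with the other groups, and the spread within groups (pooled SD 0.0067) was small beside the distance. In SKMEL2 it was -0.052, 0.085 and 0.042 in uninduced cells, -0.012, 0.020 and 0.040 at 6 h, and -0.097, -0.045 and 0.014 at 18 h. These groups overlapped, since uninduced replicate 1 was lower than 2 of the 18 h libraries, and the pooled SD was 0.0539. The plot of the members by library shows all 46 genes behind these medians.

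**Figure D1:**
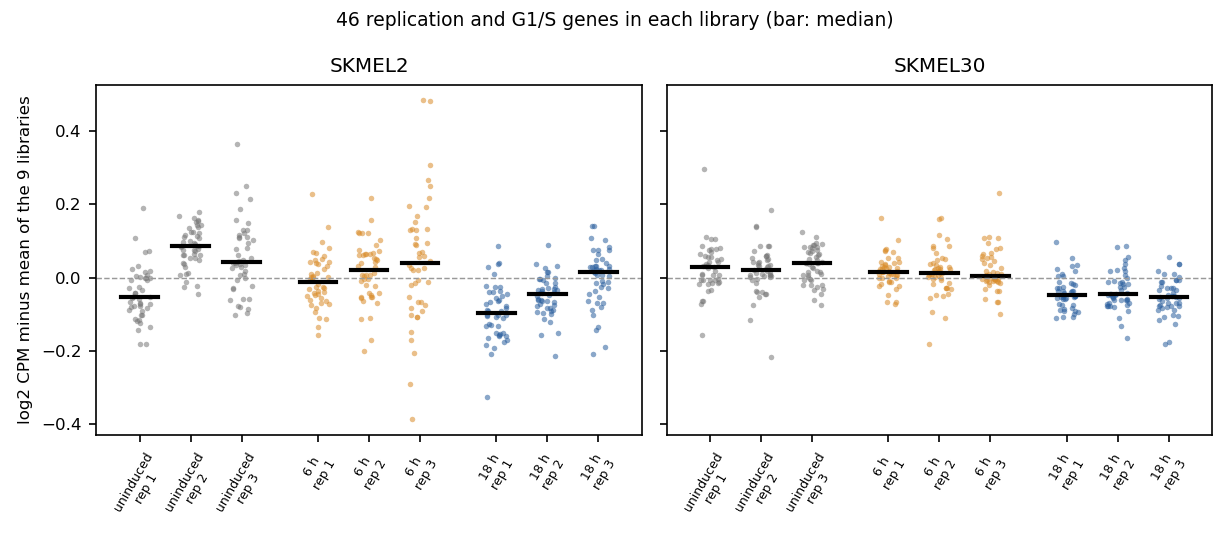
Log2 deviation of each of the 46 replication and G1/S genes (points) from the mean of the 9 libraries of its line, with the median of each library as a black bar, for SKMEL2 (left) and SKMEL30 (right). The SKMEL30 18 h medians sit at -0.045 to -0.053, below all other SKMEL30 libraries, while SKMEL2 medians run from -0.097 to 0.085 and overlap between groups.

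At 6 h the genes differed little from uninduced cells. In SKMEL2, 28 of the 46 lay below the uninduced level, with a median log2 fold change of -0.0081, beside 0.0026 over the 16120 genes tested in the line, and single genes ran from -0.23 to 0.14. In SKMEL30, 30 of the 46 lay below it with a median of -0.022, beside 5e-04 over 15026 genes, and single genes ran from -0.13 to 0.11. No member was called at an adjusted p under 0.05 (edgeR quasi-likelihood test, Benjamini-Hochberg over all genes tested) in either line, where 0.0124% of all genes in SKMEL2 and 0.206% in SKMEL30 were called. At an unadjusted p under 0.05, 0 members were lower and 0 higher in SKMEL2 (1.86% and 1.51% of all genes), and 2 lower and 0 higher in SKMEL30 (3.23% and 3.21%). DESeq2 gave 0 calls of a member in both lines and 0 members lower at an unadjusted p under 0.05. The direction in SKMEL2 rested on single libraries: the median became 0.017 without uninduced replicate 2, 0.0019 without uninduced replicate 3 and 0.011 without 6 h replicate 1. Without 6 h replicate 3 it was -0.033.

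At 18 h most of the group lay slightly below uninduced cells in both lines. In SKMEL2, 43 of 46 genes had a negative log2 fold change, with a median of -0.079 (5.3% lower), while 50.05% of all genes tested did, with a median of -2e-04. In SKMEL30, 39 of 46 did, with a median of -0.081 (5.5% lower), while 49.72% of all genes tested did, with a median of 7e-04. Single members of SKMEL2 ran from -0.28 to 0.061, and those of SKMEL30 from -0.17 to 0.065. No member was called in either comparison, and the smallest adjusted p was 0.99 in SKMEL2 and 0.14 in SKMEL30, the latter for MCM3 (edgeR). The shares of all genes called were 0.0124% in SKMEL2 and 0.293% in SKMEL30. At an unadjusted p under 0.05, 5 members were lower and 0 higher in SKMEL2, where 2.51% of all genes were lower and 2.15% higher. In SKMEL30, 19 members (41.3%) were lower and 0 higher, where 4.83% of all genes were lower and 4.31% higher. DESeq2 put 2 members lower at that level in SKMEL2 (1.78% of the same genes) and 12 in SKMEL30 (2.04%). With all 18 libraries in a single fit, which gives both lines 1 estimate of the spread, the counts were 11 in SKMEL2 (4% of the same genes) and 5 in SKMEL30 (1.8%). In SKMEL2 the count ran from 0 without 18 h replicate 3 (1.65% of genes) to 8 without uninduced replicate 1 (3.28%), and was 1 without uninduced replicate 2 or 3 and 2 or 3 without 18 h replicate 1 or 2. The SKMEL2 median moved to -0.12 without uninduced replicate 1, -0.050 without uninduced replicate 2 and -0.052 without 18 h replicate 1, and remained negative without each of the other libraries of that comparison.

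**Figure D2:**
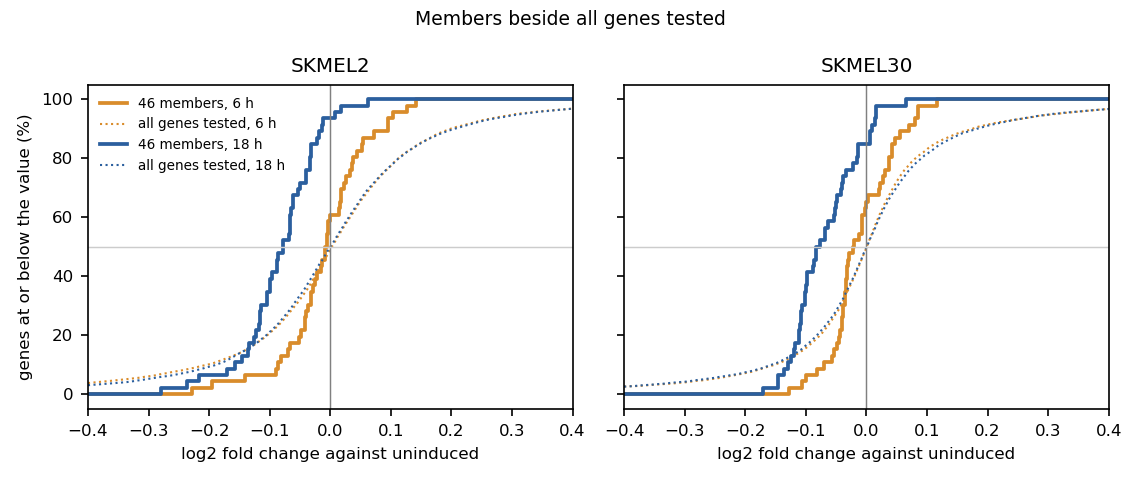
Cumulative share of genes (%) at or below a given log2 fold change against uninduced cells, for the 46 members (solid steps) and all genes tested (dotted lines), at 6 h (orange) and 18 h (blue), SKMEL2 left and SKMEL30 right. At 18 h the member curves lie to the left of the curves of all genes, with medians of -0.079 and -0.081 beside -2e-04 and 7e-04.

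Counted by library, 6 members in SKMEL2 (GINS3, MCM10, MCM3, POLA1, POLD3 and POLE) had all 3 libraries at 18 h below all 3 uninduced libraries, as did 6.89% of all genes tested, and 0 members lay wholly above (7.43%). With 1 library left out, separation is easier for any gene: the count was 26 without uninduced replicate 1 (14.6% of all genes), 12 without 18 h replicate 3 (12%) and 6 to 9 without each of the others (10% to 11.7%). In SKMEL30, 22 members lay wholly below (8.13% of all genes) and 0 wholly above (7.88%). They were CDCA7, CHAF1A, CHAF1B, DTL, E2F1, E2F2, FEN1, GINS1, LIG1, MCM2, MCM3, MCM4, MCM6, MCM7, PCNA, POLA2, POLD1, POLE, PRIM1, RFC3, RRM1 and TYMS. At 6 h, CCNE2 alone lay wholly below in SKMEL2 (3.61% of all genes) and 0 members above (3.19%), while CDC45, CHAF1A and POLE lay below (5.84%) and ORC6 and RPA2 above (5.44%) in SKMEL30.

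Between 6 h and 18 h the same side was seen. In SKMEL2, 41 of 46 genes were lower at 18 h than at 6 h, with a median of -0.083, and in SKMEL30, 44 of 46 were, with a median of -0.059, while the medians of all genes tested were -0.0056 and -0.001. No member was called in either line, where 0% of all genes in SKMEL2 and 0.02% in SKMEL30 were called. At an unadjusted p under 0.05, 2 members were lower and 0 higher in SKMEL2 (1.43% and 1.17% of all genes), and 14 were lower and 0 higher in SKMEL30 (2.82% and 2.74%). DESeq2 also called 0 members and put 2 and 8 of them lower at that level (1.03% and 1.12% of the same genes). The fit of all 18 libraries put 6 lower in SKMEL2 (2.69%) and 1 in SKMEL30 (1.14%). The SKMEL2 median was -0.051 without 6 h replicate 3 and -0.047 without 18 h replicate 1. In SKMEL30 the median was -0.048 without 6 h replicate 3, the library with the keratinocyte transcripts. This comparison uses the same 18 h libraries as the comparison with uninduced cells.

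Both lines held the same direction for most members at 18 h: 37 of 46 (80.4%) were lower in both and 1 higher in both, where 24.9% of the 14079 genes tested in both lines were lower in both. At 6 h, 16 members (34.8%) were lower in both lines, beside 22% of all genes. Whether the lines responded differently was tested by an interaction term, with the 18 libraries fitted at once. No member differed at an adjusted p under 0.05 at either time (edgeR), where 0% of all genes at 6 h and 0.00584% at 18 h did. At an unadjusted p under 0.05, 3 members differed at 6 h and 1 at 18 h, where 4.91% and 5.16% of all genes did, so these counts were near the background. DESeq2 called 0 members in both. The smallest unadjusted p was 0.027, for CCNE2 at 6 h, with a difference (SKMEL2 minus SKMEL30) of -0.30 ± 0.13 (SE), an interval of -0.57 to -0.038 and an adjusted p of 0.90 (edgeR). At 18 h the median difference over the members was 0.0014, with single genes from -0.24 to 0.14. The median SE of these differences was 0.088, so a difference between the lines of the size of the changes within them could not be detected for most members.

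**Figure D3:**
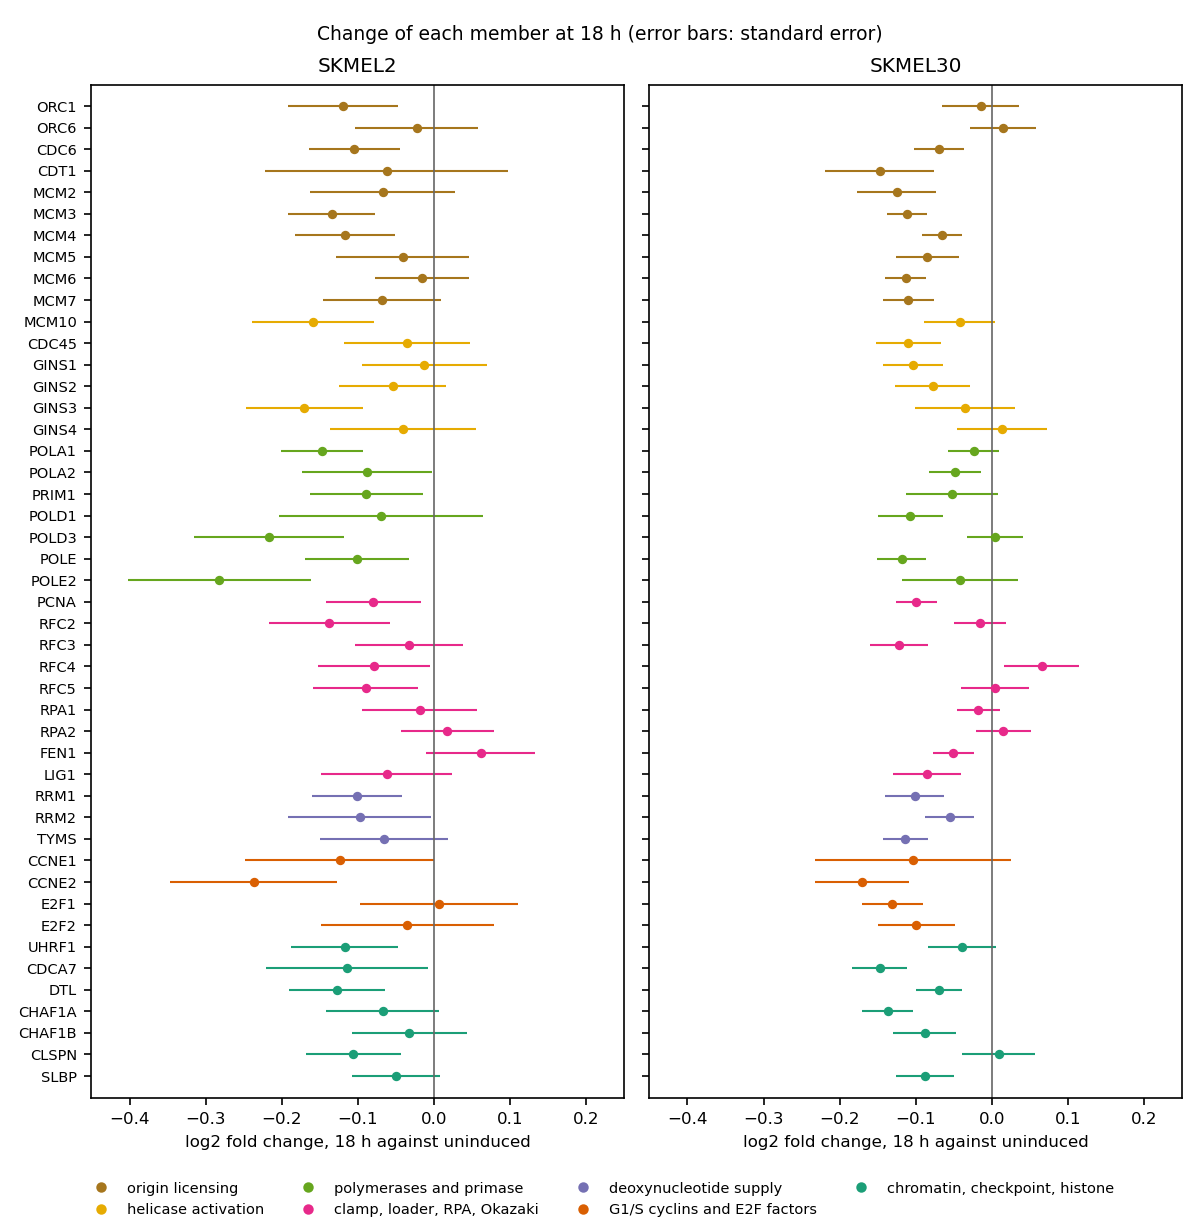
Log2 fold change at 18 h against uninduced cells with its standard error for each of the 46 members, ordered and coloured by role, in SKMEL2 (left) and SKMEL30 (right). Points left of the line at 0 number 43 in SKMEL2 and 39 in SKMEL30, and error bars are wider in SKMEL2 (median SE 0.076) than in SKMEL30 (median SE 0.040).

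Origin licensing genes lay below uninduced cells at 18 h in 10 of 10 cases in SKMEL2 (median -0.068) and in 9 of 10 in SKMEL30 (median -0.097). ORC6, a subunit of the origin recognition complex, was the exception, at 0.015 in SKMEL30. CDC6 (ENSG00000094804, chr17:40287879-40304657 on GRCh38.p14), the helicase loader and known partner of PR70, had 107, 116 and 117 CPM in uninduced SKMEL2, 108, 119 and 116 CPM at 6 h, and 104, 102.5 and 109.6 CPM at 18 h. In SKMEL30 it had 198, 189 and 198 CPM uninduced, 195, 194 and 191 CPM at 6 h, and 189.6, 177 and 191 CPM at 18 h. The groups overlapped in both lines. Its log2 fold change was 0.020 ± 0.060 (SE) at 6 h and -0.10 ± 0.060 at 18 h in SKMEL2, and -0.013 ± 0.033 and -0.070 ± 0.033 in SKMEL30, with adjusted p between 0.56 and 0.99 (edgeR). Between 6 h and 18 h it was -0.12 ± 0.060 in SKMEL2 and -0.056 ± 0.033 in SKMEL30. In SKMEL30 it was -0.037 at 18 h against uninduced and -0.024 against 6 h without 18 h replicate 2, and its 6 h value ran from -0.036 to -0.0022 with 1 library left out. The 6 h direction in SKMEL2 changed sign without uninduced replicate 1 (-0.016) and without 6 h replicate 2 (-0.0039).

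MCM3 (ENSG00000112118, chr6:52264015-52284742), a subunit of the MCM2-7 helicase, was the one member at an unadjusted p under 0.05 on the same side in both lines at 18 h. It had 253, 268 and 253 CPM in uninduced SKMEL2, 247, 239 and 264 CPM at 6 h, and 233, 232 and 241 CPM at 18 h. In SKMEL30 it had 363.5, 353 and 365 CPM uninduced, 355.5, 354 and 339 CPM at 6 h, and 336, 336 and 329 CPM at 18 h. All libraries at 18 h were below all uninduced libraries in both lines. The log2 fold change was -0.13 ± 0.057 (SE), interval -0.26 to -0.011, in SKMEL2 and -0.11 ± 0.026, interval -0.17 to -0.055, in SKMEL30, with adjusted p of 0.99 and 0.14 (edgeR). DESeq2 called it in SKMEL30, with an adjusted p of 0.015. MCM6, another subunit of the helicase, had 263, 267 and 267 CPM in uninduced SKMEL30, 253, 269 and 257 CPM at 6 h and 250.5, 243 and 243 CPM at 18 h. Its log2 fold change there was -0.11 ± 0.027 with an adjusted p of 0.14 by edgeR and 0.045 by DESeq2, while in SKMEL2 it was -0.016 ± 0.062. MCM2 stood at 60.5, 64.9 and 60.3 CPM in uninduced SKMEL30, at 61.8, 54.4 and 57.3 CPM at 6 h and at 58.3, 57.7 and 54.5 CPM at 18 h, and its 6 h log2 fold change was -0.11 ± 0.051 (adjusted p 0.78, edgeR), which became -0.071 without uninduced replicate 2 and -0.063 without 6 h replicate 2. In SKMEL30 all 6 MCM2-7 genes were lower at 18 h, from -0.13 for MCM2 to -0.066 for MCM4, and in SKMEL2 all 6 were, from -0.13 for MCM3 to -0.016 for MCM6, though no one of them was called.

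Helicase activation genes (MCM10, CDC45 and the 4 GINS subunits) were lower at 18 h in 6 of 6 cases in SKMEL2 (median -0.047) and in 5 of 6 in SKMEL30 (median -0.060). CDC45, which binds MCM2-7 to form the active helicase, had 70.1, 77.4 and 74.2 CPM in uninduced SKMEL30 and 68.9, 68.0 and 69.9 CPM at 6 h, so its 6 h libraries lay below the uninduced ones. The log2 fold change was -0.10 ± 0.042 (SE) with an adjusted p of 0.74 (edgeR), and -0.066 without uninduced replicate 2. In SKMEL2 the same gene stood at 0.10 ± 0.083 at 6 h. MCM10, a factor needed to start the helicase, had 61.0, 64.8 and 71.0 CPM in uninduced SKMEL2, 56.6, 66.6 and 55.1 CPM at 6 h and 56.5, 59.7 and 60.4 CPM at 18 h. Its log2 fold change was -0.14 ± 0.081 at 6 h and -0.16 ± 0.080 at 18 h, both with an adjusted p of 0.99 (edgeR). The 6 h value was -0.082 without uninduced replicate 3 and -0.23 without 6 h replicate 2.

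Of the polymerase and primase genes, 7 of 7 were lower at 18 h in SKMEL2 (median -0.10) and 6 of 7 in SKMEL30 (median -0.048). POLA1, the catalytic subunit of polymerase alpha, which begins each new strand with primase, had 87.0, 92.0 and 93.8 CPM in uninduced SKMEL2, 89.9, 91.4 and 86.5 CPM at 6 h and 81.3, 83.4 and 82.1 CPM at 18 h. Its 18 h libraries were below all others of the line, and its log2 fold change of -0.15 ± 0.054 (SE) had the smallest unadjusted p of the members in SKMEL2 (0.018), with an adjusted p of 0.99 (edgeR). In SKMEL30 its change was -0.024 ± 0.034, with an interval of -0.096 to 0.048. The difference between the lines was -0.12 ± 0.060, interval -0.25 to 0.0037. POLE2, an accessory subunit of polymerase epsilon, had 12.5, 14.5 and 15.6 CPM in uninduced SKMEL2 and 10.3, 13.1 and 11.9 CPM at 18 h, a log2 fold change of -0.28 ± 0.12 with an adjusted p of 0.99 (edgeR), and -0.042 ± 0.077 in SKMEL30. POLE, the catalytic subunit for the leading strand, had 110.5, 108 and 106.9 CPM in uninduced SKMEL30, 106.8, 106 and 106 CPM at 6 h and 101, 101 and 97.4 CPM at 18 h. All 6 of its induced libraries were below the 3 uninduced ones, though narrowly, with 106.8 CPM in the highest induced and 106.9 CPM in the lowest uninduced. Among the 46 members in SKMEL30 this held for 2, POLE and CHAF1A, beside 2.24% of all genes tested. In SKMEL2 it held for 0 members, beside 1.21% of all genes.

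Genes for the clamp, its loader, single-strand binding and Okazaki fragment joining were more divided: 7 of 9 were lower at 18 h in SKMEL2 (median -0.062) and 6 of 9 in SKMEL30 (median -0.018). PCNA, the sliding clamp, had 353.5, 347 and 369.6 CPM in uninduced SKMEL30, 349, 352 and 344 CPM at 6 h and 336, 331 and 332 CPM at 18 h, without overlap between uninduced and 18 h. Its log2 fold change was -0.099 ± 0.027 (SE), adjusted p 0.21 (edgeR), and -0.080 ± 0.063 in SKMEL2. The loader subunits did not share a side in SKMEL30, where RFC3 stood at -0.12 ± 0.038 and RFC4 at 0.065 ± 0.049. RPA2, a subunit of the single-strand binding protein, was the one member on the positive side in both lines, at 0.018 ± 0.061 and 0.015 ± 0.036.

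Deoxynucleotide supply genes were lower at 18 h in 3 of 3 cases in each line. RRM1, the large subunit of ribonucleotide reductase, was the one member at an unadjusted p under 0.05 on the same side in both lines between 6 h and 18 h. It had 165, 169 and 175 CPM at 6 h and 143.5, 157 and 159 CPM at 18 h in SKMEL2, and 187, 199 and 190.4 CPM at 6 h and 177, 183 and 181 CPM at 18 h in SKMEL30. The 2 times did not overlap in either line. The log2 fold changes were -0.15 ± 0.059 (SE) and -0.093 ± 0.039, with adjusted p of 1.00 and 0.86 (edgeR). RRM2, the small subunit, had 419, 423 and 419.7 CPM at 6 h and 382, 388 and 410.1 CPM at 18 h in SKMEL30, a log2 fold change of -0.097 ± 0.033 with an adjusted p of 0.77 (edgeR). TYMS, thymidylate synthase, had 248.9, 261 and 266 CPM in uninduced SKMEL30 and 236, 241 and 241 CPM at 18 h. Its change of -0.11 ± 0.030 was not called in the main fit, where the smallest adjusted p of the deoxynucleotide supply genes was 0.19 (edgeR). Of the alternatives, only the fit with no filter on low counts called TYMS (adjusted p 0.046, edgeR).

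Of the G1/S cyclins and E2F factors, 3 of 4 were lower at 18 h in SKMEL2 (median -0.079) and 4 of 4 in SKMEL30 (median -0.12). CCNE2, a cyclin E gene, had 11.4, 12.3 and 15.1 CPM in uninduced SKMEL2, 11.2, 11.1 and 10.8 CPM at 6 h and 10.3, 11.7 and 11.0 CPM at 18 h. In SKMEL30 it had 25.2, 28.0 and 27.9 CPM uninduced, 26.8, 29.6 and 28.5 CPM at 6 h and 25.4, 23.4 and 23.2 CPM at 18 h. In SKMEL2 the induced libraries of 6 h and 18 h thus lay at about the same level, while in SKMEL30 those of 6 h lay near the uninduced ones. In SKMEL2 it was -0.23 ± 0.11 (SE) at 6 h and -0.0085 ± 0.11 between 6 h and 18 h, and in SKMEL30 it was 0.070 ± 0.060 at 6 h and -0.24 ± 0.062 between 6 h and 18 h. The SKMEL2 6 h value was -0.10 without uninduced replicate 3. None of these values was called, and the last had an adjusted p of 0.56 (edgeR). E2F1, a transcription factor of the G1/S boundary, had 93.1, 95.5 and 100 CPM in uninduced SKMEL30 and 88.0, 87.7 and 87.8 CPM at 18 h, a log2 fold change of -0.13 ± 0.040, and 0.0067 ± 0.10 in SKMEL2.

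Chromatin, checkpoint and histone supply genes were lower at 18 h in 7 of 7 cases in SKMEL2 (median -0.11) and in 6 of 7 in SKMEL30 (median -0.087). CHAF1A (ENSG00000167670, chr19:4402640-4450830), a subunit of the histone chaperone CAF-1 that places histones behind the fork, had 109, 107 and 104 CPM in uninduced SKMEL30, 102, 99.5 and 101 CPM at 6 h and 94.7, 98.2 and 98.5 CPM at 18 h. The 3 groups did not overlap, with 6 h between the others, and the values were log2 fold changes of -0.083 ± 0.034 (SE) at 6 h and -0.14 ± 0.034 at 18 h, and adjusted p of 0.71 and 0.15 (edgeR). An exact two-sided permutation test of its 6 induced against 3 uninduced libraries gave p = 0.012, the smallest that 84 splits allow, and 0.44 after adjustment over the 92 tests of 46 members in the 2 lines. In SKMEL2 it had 55.6, 59.8 and 65.8 CPM uninduced and 55.2, 57.9 and 60.3 CPM at 18 h, with overlap. CDCA7, a cofactor of the remodeller HELLS, had 84.7, 80.1 and 80.6 CPM in uninduced SKMEL30, 81.3, 80.5 and 77.8 CPM at 6 h and 73.8, 73.6 and 74.3 CPM at 18 h, and its log2 fold changes were -0.15 ± 0.036 against uninduced and -0.11 ± 0.036 against 6 h, with adjusted p of 0.15 and 0.77 (edgeR). In SKMEL2 its 6 h value of -0.20 ± 0.11 rested on 6 h replicate 3 (18.3 CPM beside 25.5 and 23.9 CPM) and was -0.078 without it (adjusted p 0.99 with it).

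**Figure D4:**
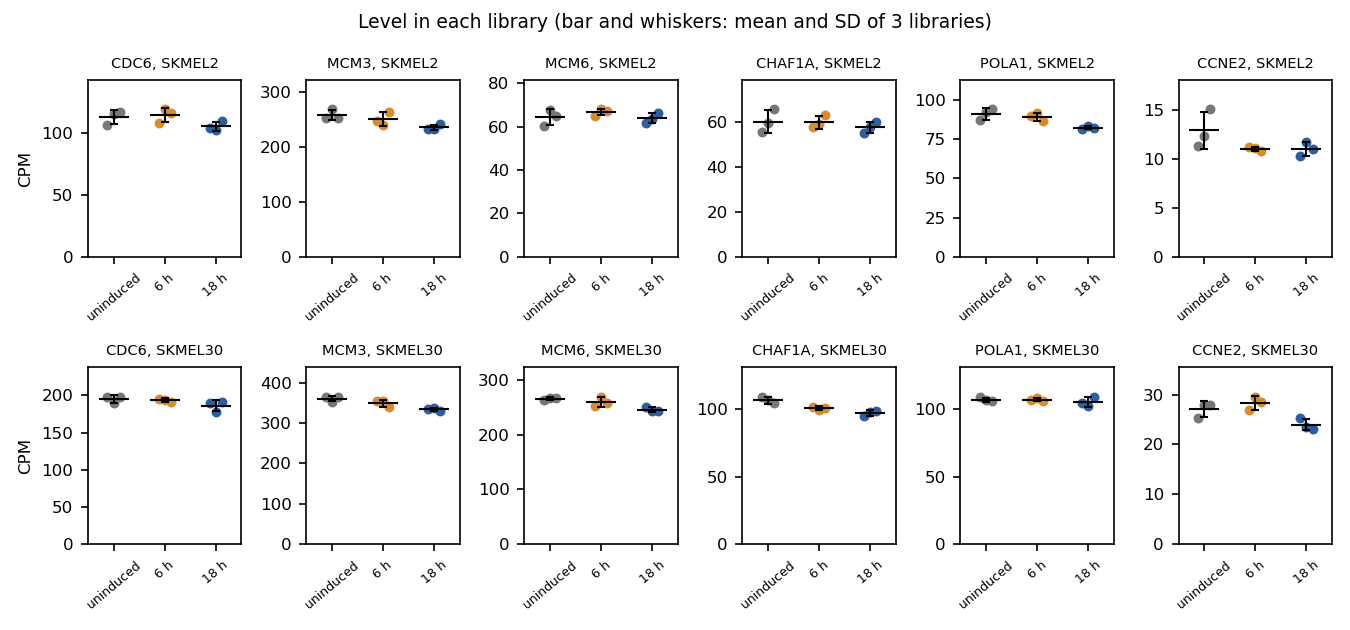
CPM (linear axes from 0) of 6 members in every library, SKMEL2 above and SKMEL30 below, with points for the 3 libraries of each group and a bar with whiskers for their mean and SD. MCM3 at 18 h lies below all uninduced libraries in both lines (232 to 241 and 329 to 336 CPM), CHAF1A does so in SKMEL30 (94.7 to 98.5 CPM), and CDC6 groups overlap in both.

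The promoters of the members were set beside these values, since E2F sites are a known feature of G1/S promoters. RefSeq promoter windows on GRCh38.p14, 250 bases before to 50 after the start, were found for 40 of the 46 members. MCM4, MCM5, GINS4, POLD3, RPA2 and CCNE2 had no entry. The E2F motif was searched as TTTCCCGC, TTTCGCGC, TTTGCCGC or TTTGGCGC on both strands, where hits may overlap. It occurred in 23 of 40 member promoters (57.5%), in 3.3% of 27305 promoters, in 25% of 32 promoters of other replication and G1/S genes and in 8.3% of 24 promoters of mitotic genes. The cell cycle homology element of mitotic promoters, searched as TTTGAA on both strands, occurred in 1 of 40 member promoters (2.5%), 15.4% of all promoters and 66.7% of the mitotic ones. These shares were not matched for base composition, and a match is not a shown binding site. Only these exact letters were searched, so a window without a match may still hold a variant of the motif. The windows of 8 members described in the results are shown, 6 with a match and 2 (CHAF1A and RRM1) without, of which PCNA and TYMS were picked after their values were seen. They run from 160 bases before to 15 after the start, read along the gene's strand, with the E2F letters in capitals. MCM6 lies at chr2:135876429-135876603 on the minus strand and holds 4 matches, which overlap in pairs. MCM3 lies at chr6:52284728-52284902 and PCNA at chr20:5126608-5126782, both on the minus strand. TYMS lies at chr18:657493-657667, CDCA7 at chr2:173354712-173354886 and CDC6 at chr17:40287719-40287893, all on the plus strand. CHAF1A lies at chr19:4402480-4402654 and RRM1 at chr11:4094525-4094699, both on the plus strand.
MCM6: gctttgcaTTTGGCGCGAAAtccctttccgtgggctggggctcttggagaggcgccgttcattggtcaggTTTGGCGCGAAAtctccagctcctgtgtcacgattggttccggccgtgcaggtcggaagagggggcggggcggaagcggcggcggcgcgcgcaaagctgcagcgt
MCM3: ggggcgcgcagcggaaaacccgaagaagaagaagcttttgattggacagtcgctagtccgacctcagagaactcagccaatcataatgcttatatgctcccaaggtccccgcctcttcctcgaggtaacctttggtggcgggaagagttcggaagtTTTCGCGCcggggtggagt
PCNA: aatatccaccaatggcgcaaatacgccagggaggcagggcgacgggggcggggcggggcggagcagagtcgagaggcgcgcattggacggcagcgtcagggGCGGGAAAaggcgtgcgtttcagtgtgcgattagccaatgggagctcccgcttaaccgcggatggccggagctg
TYMS: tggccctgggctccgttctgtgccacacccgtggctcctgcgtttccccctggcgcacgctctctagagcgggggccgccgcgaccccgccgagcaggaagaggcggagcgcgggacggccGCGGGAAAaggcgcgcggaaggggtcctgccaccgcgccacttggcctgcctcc
CDCA7: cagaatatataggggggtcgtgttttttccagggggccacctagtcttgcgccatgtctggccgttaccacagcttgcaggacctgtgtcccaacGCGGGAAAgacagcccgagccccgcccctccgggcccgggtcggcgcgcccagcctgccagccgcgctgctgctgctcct
CDC6: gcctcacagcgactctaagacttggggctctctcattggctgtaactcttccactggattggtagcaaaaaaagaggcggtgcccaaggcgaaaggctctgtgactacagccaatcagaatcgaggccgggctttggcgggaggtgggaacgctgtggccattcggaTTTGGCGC
CHAF1A: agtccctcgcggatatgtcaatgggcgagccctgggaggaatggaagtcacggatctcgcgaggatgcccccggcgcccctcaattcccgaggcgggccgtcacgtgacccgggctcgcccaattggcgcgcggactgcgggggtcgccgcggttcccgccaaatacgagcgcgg
RRM1: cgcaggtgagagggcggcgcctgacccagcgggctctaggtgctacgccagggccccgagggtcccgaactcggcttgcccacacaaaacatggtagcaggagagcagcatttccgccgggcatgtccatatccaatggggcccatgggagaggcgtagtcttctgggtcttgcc

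At 18 h the 23 members with E2F letters had a median log2 fold change of -0.080 in SKMEL2 and -0.099 in SKMEL30, and 22 of 23 were lower in each line. The 17 members without them had medians of -0.079 and -0.052, with 16 and 14 of 17 lower. The medians of both sets thus lay on the same side, at about the same value in SKMEL2, and the distance in SKMEL30 was not tested.

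Other genes of the cell cycle were counted in the same way. Of 40 further replication and G1/S genes, 29 were lower at 18 h in SKMEL2 (median -0.076) and 30 in SKMEL30 (median -0.039). None was called, and 3 (7.5%) and 5 (12.5%) were lower at an unadjusted p under 0.05 (edgeR), where 2.51% and 4.83% of all genes tested were. Of 30 mitosis and G2/M genes, 26 were lower in SKMEL2 (median -0.14) and 23 in SKMEL30 (median -0.060), and 0 and 11 were lower at that level with none called. The 11 in SKMEL30 were 36.7% of the mitotic list, beside 41.3% of the members. At 6 h in SKMEL2, 20 of 30 mitotic genes were lower with a median of -0.028, where the members had a median of -0.0081. At 6 h in SKMEL30 the mitotic genes lay on the other side, 19 of 30 higher with a median of 0.027, where the members had a median of -0.022. Between 6 h and 18 h, 29 of 30 mitotic genes were lower in each line, with medians of -0.10 in SKMEL2 and -0.068 in SKMEL30. The members had medians of -0.083 and -0.059. No mitotic gene was called, and 0 and 9 were lower at an unadjusted p under 0.05 (edgeR). Of all genes tested, 1.43% and 2.82% were. Of the 40 further replication and G1/S genes, 29 and 30 were lower, with medians of -0.032 and -0.047. The mitotic genes also varied more between libraries of a group, with a pooled SD of their level of 0.132 in SKMEL2 and 0.0436 in SKMEL30 beside 0.0539 and 0.0067 for the members. The SKMEL2 libraries in which they were low, uninduced replicate 1 (-0.098), 6 h replicate 1 (-0.11) and 18 h replicate 1 (-0.21), were also the lowest of their groups for the members. In SKMEL30 the libraries numbered 1 were the lowest of their groups for the mitotic genes as well. Whether libraries of the same number were made together is not given in the sources used here.

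Within groups, the members varied together in SKMEL2 and hardly in SKMEL30. After the group means were removed, the median Pearson correlation over the 1035 pairs of members was 0.292 in SKMEL2, with 68.4% of pairs above 0, and 0.004 in SKMEL30, with 50.6% above 0. The members with other genes gave 0.007 and -0.001. These correlations describe 9 libraries per line that share depth and scaling.

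The largest differences among the members lay between the 2 lines before induction. Of the 46, 38 were called between uninduced SKMEL2 and uninduced SKMEL30 (edgeR, adjusted p under 0.05), 32 of them lower and 6 higher in SKMEL2. Over all 17133 genes tested 75.9% were called, 35.8% lower and 40.1% higher, so a call by itself is near the background here, while 69.6% of the members were called lower. The median log2 difference (SKMEL2 minus SKMEL30) was -0.66 over the members and 0.054 over all genes. The 2 lines differ in origin, culture history and vector insertion, and these cannot be told apart.

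The members with the largest differences, in mean CPM ± SD of 3 libraries, came from several roles. POLD3, a subunit of polymerase delta, was at 22.8 ± 2.3 in SKMEL2 and 100.1 ± 2.7 in SKMEL30, a log2 difference of -2.13 ± 0.073 (SE). MCM6 was at 64.3 ± 3.7 and 266 ± 2.5 (-2.04 ± 0.046), and MCM5 at 57.0 ± 4.4 and 185 ± 3.8 (-1.69 ± 0.068). CDCA7 was at 26.0 ± 2.0 and 81.8 ± 2.5 (-1.66 ± 0.078), and RRM2 at 173.5 ± 22 and 409 ± 15 (-1.23 ± 0.077). In the other direction, MCM2 was at 124 ± 7.8 and 61.9 ± 2.6 (1.00 ± 0.082), PRIM1, the catalytic primase subunit, at 54.6 ± 3.6 and 27.5 ± 0.18 (0.99 ± 0.070), and POLE at 192 ± 10 and 108 ± 1.9 (0.83 ± 0.053). MCM7 was at 364 ± 22 and 277 ± 7.0 (0.40 ± 0.061), and RFC4, a clamp loader subunit, at 62.9 ± 4.4 and 53.4 ± 2.8 (0.24 ± 0.065). UHRF1, which couples DNA methylation to replication, was the sixth member called higher, at 0.22 ± 0.059. The adjusted p of the 5 members with the largest called difference in each direction ran up to 0.0028 (edgeR). CDC6 was lower in SKMEL2, at 113 ± 5.6 and 195 ± 5.1 CPM (-0.79 ± 0.048).

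The 6 subunits of the MCM2-7 ring, which act in equal number in the helicase, did not differ between the lines in 1 direction. Per kilobase of the canonical transcript, their levels in uninduced SKMEL2 were 147.6 for MCM7, 84.1 for MCM3, 48.5 for MCM4, 35.99 for MCM2, 17.1 for MCM6 and 16.5 CPM per kilobase for MCM5. In uninduced SKMEL30 they were 118 for MCM3, 112 for MCM7, 86.9 for MCM4, 70.8 for MCM6, 53.4 for MCM5 and 18.0 CPM per kilobase for MCM2. The lowest subunit was thus MCM5, with MCM6 close to it, in SKMEL2 and MCM2 in SKMEL30. Between lines, MCM3 to MCM6 were lower in SKMEL2 by 0.48 (MCM3) to 2.04 (MCM6) on the log2 scale, while MCM2 and MCM7 were higher. Over all members the highest levels per kilobase were those of MCM7, PCNA and TYMS in SKMEL2 and of PCNA, TYMS and RRM2 in SKMEL30, and the lowest those of E2F2, CCNE1 and CCNE2 in SKMEL2 and of CCNE1, E2F2 and GINS3 in SKMEL30. PCNA stood at 143.5 and 279.6 CPM per kilobase.

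**Figure D5:**
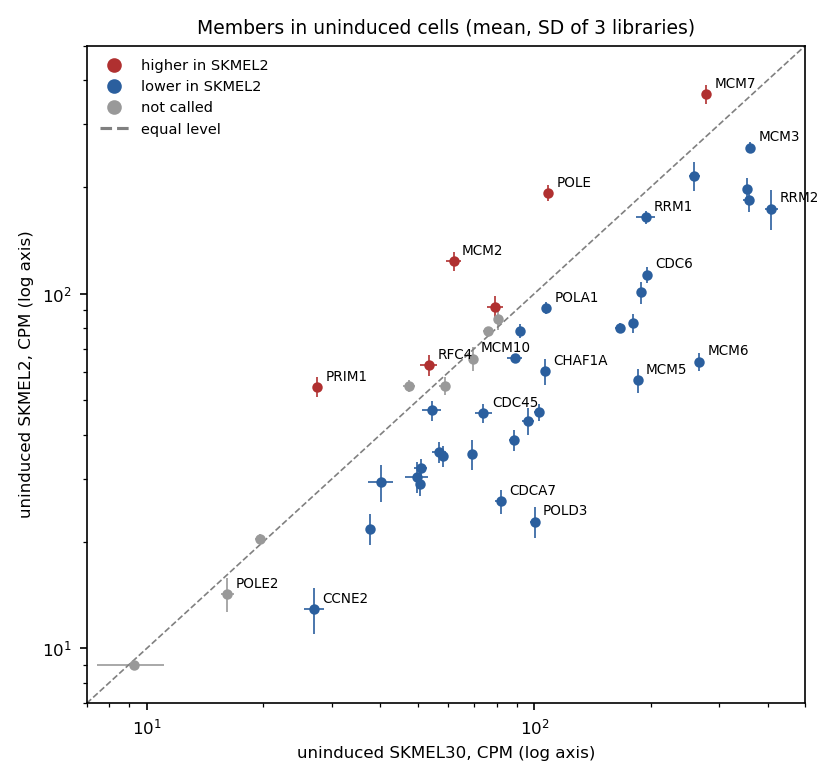
Mean CPM (log axes) of the 46 members in uninduced SKMEL30 (horizontal) and uninduced SKMEL2 (vertical), with error bars for the SD of 3 libraries, coloured by the test between lines. Most points lie below the line of equal level (32 called lower in SKMEL2, 6 called higher), and MCM2, PRIM1, POLE and MCM7 lie above it.

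The remaining members lay within the 18 h ranges already given and were not called in any comparison within a line. Between uninduced lines, ORC1, ORC6, CDT1, MCM4, CDC45, GINS1, GINS2, GINS4, POLA1, POLA2, PCNA, RFC3, RFC5, RPA1, FEN1, RRM1, TYMS, CCNE2, E2F1, E2F2, DTL, CHAF1A, CHAF1B, CLSPN and SLBP were lower in SKMEL2. LIG1, RFC2, RPA2, GINS3, MCM10, POLE2, POLD1 and CCNE1 were not called there, with log2 differences between -0.18 and 0.21.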

How the data were processed

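Gene expression was measured by RNA-seq in 18 libraries, made with a KAPA mRNA HyperPrep kit from RNA purified on Qiagen RNeasy columns and sequenced from both ends. The authors aligned the reads to GRCh38 and estimated counts per gene with RSEM. The submitters' processing notes name Trimmomatic 0.36, cutadapt 1.5, STAR 2.2.2a, SAMtools 1.8 and RSEM 1.3.0, and the study's text gives other versions of some of these. The deposited values are expected counts for 58051 genes, without scaling for library size, of which 12.3% are not whole because RSEM shares reads between genes. They were rounded to whole numbers here. Totals of 13402645 to 22383470 counts limit the precision mainly for genes of low CPM.

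Symbols were matched to 95.8% of gene IDs. In R 4.3.3 with edgeR 4.0.16, genes were filtered with filterByExpr and scaled by TMM, and each line was modelled on its own 9 libraries by glmQLFit, followed by glmQLFTest (16120 and 15026 genes). Comparisons between lines used a fit of all 18 libraries (17133 genes). The threshold for a call was 0.05 after Benjamini-Hochberg adjustment over all genes tested. The standard error was the log2 fold change divided by the square root of F, and intervals are at 95%. CPM are on the TMM scale of all 18 libraries. Levels per kilobase divide CPM by the length of the canonical GENCODE transcript, matched by gene ID. Single genes were also compared by exact permutation of 6 induced against 3 uninduced libraries. The sources do not say whether libraries of the same number belong together, so the main fits have no block, and the check of their correlations is given with the other settings. Every pair of replicates differed by more than counting noise (chi-square over degrees of freedom of 2.08 to 18.6).

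The members and lists were chosen with earlier results of these data known. Described in full were CDC6, the 3 members with the smallest p in each comparison within a line, members at an unadjusted p under 0.05 on the same side in both lines, and the 5 members with the largest called difference between uninduced lines in each direction. PCNA, TYMS, POLE, RFC3, RPA2, E2F1 and UHRF1 are also described but lie outside this rule, having been picked once the values were known. Alternatives were DESeq2 1.42.0, RLE factors, either no filter or a minimum of 10 counts per library, the replicate block, only the 6 libraries compared, all 18 libraries in 1 fit, and each library left out in turn. The steps were tested on simulated data with changes larger than those of the members within a line. Recovery of changes of the members' size was not tested.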

Additional observations from a re-analysis of the deposited data

How the results depend on the processing

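In the alternatives run, no member was called in any comparison within a line except in SKMEL30 at 18 h against uninduced, where 2 were called with DESeq2 (MCM3 at -0.11, adjusted p 0.015, and MCM6 at -0.11, adjusted p 0.045) and 2 with no filter on low counts (MCM6 at -0.11, adjusted p 0.047, and TYMS at -0.11, adjusted p 0.046). In that comparison 44 of all genes tested (0.293%) were called in the main fit, and 359 without a filter. Members lower at 18 h numbered 36 to 44 in SKMEL2 over 13 alternatives, and 35 to 41 in SKMEL30. Leaving out each library in turn moved the SKMEL30 median from -0.031 to -0.0096 at 6 h, from -0.082 to -0.062 at 18 h and from -0.064 to -0.048 for 18 h against 6 h, and the median difference between uninduced lines from -0.72 to -0.63. The SKMEL2 count of members wholly below at 18 h ran from 6 to 26, where the share of all genes ran from 10% to 14.6%. CDC6 at 6 h in SKMEL2 ran from -0.016 to 0.066 over those fits and changed sign without uninduced replicate 1 (-0.016) and without 6 h replicate 2 (-0.0039). With the replicate block, the medians at 18 h were -0.079 in SKMEL2 and -0.080 in SKMEL30. Correlations of same-numbered libraries after removing group means exceeded 0.1 for 3 pairs out of 9 in SKMEL2 and 2 out of 9 in SKMEL30, and 5 of 9 and 8 of 9 libraries correlated best with one of their own number. A cut of 0.1 does not decide whether libraries of the same number belong together. The numbers were not taken as pairs because the sources do not say so, and these values are a hint from the data only. The block changed no call of a member within a line, called 39 in place of 38 members between the uninduced lines, and moved the genes called from 2 to 7 in SKMEL2 at 18 h and from 3 to 16 in SKMEL30 for 18 h against 6 h. At 18 h, 2 of all genes were called in SKMEL2 (2 to 168 over the alternatives) and 44 in SKMEL30 (9 to 359), in both cases most without a filter. For 6 h these were 2 (2 to 158) and 31 (5 to 321), for 18 h against 6 h they were 0 (0 to 135) and 3 (0 to 197), and for the line differences 0 (0 to 237) at 6 h and 1 (1 to 216) at 18 h. The cause of these moves was not tested. With a median SE of 0.076 in SKMEL2 and 0.040 in SKMEL30, changes of the size seen here were mostly too small to be called for single genes at this depth and number of libraries.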

Other observations

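The lists beside the members were also compared between the uninduced lines. Of 40 other replication and G1/S genes, 36 were called (edgeR, adjusted p under 0.05), 30 lower and 6 higher in SKMEL2, with a median log2 difference of -0.51. Of 30 mitosis and G2/M genes, 28 were called, 23 lower and 5 higher in SKMEL2, with a median of -0.53. Over all genes tested 75.9% were called, 35.8% lower and 40.1% higher in SKMEL2. The members had a median of -0.66 and all genes tested one of 0.054.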
